A study of Mus musculus with 4 samples.

Results

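The genes of the respiratory chain and of ATP synthase were examined in mouse islet cells by the complex they build and by the genome that encodes them. Members were taken by symbol: the Nduf subunit genes of complex I, Sdha to Sdhd of complex II, the Uqcr genes of complex III, the Cox4 to Cox8 genes of complex IV, the Atp5 genes of complex V, and the protein genes of mitochondrial DNA, with pseudogene names and Nduf assembly factors left out. This gave 100 of the 32227 genes listed, of which 87 are nuclear (40 of complex I, 4 of complex II, 8 of complex III, 18 of complex IV and 17 of complex V) and 13 are mitochondrial (7, none, 1, 3 and 2 in the same order).

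Islets came from adult mice homozygous for Myt3IM, an allele with a short CRISPR-made insertion that breaks an upstream open reading frame of the zinc finger gene Myt3 (St18), and from control mice homozygous for the wild-type allele. The study's results give a cross of the line to C57Bl/6j and its methods give CBA/BL6j, so the strain is not settled here. The islets of males and females were pooled for each sample. A normal diet and PIPseq, a droplet method, stand in the labels, while the study's methods give a high-fat diet and inDrop, so diet and platform are not settled here. Droplet libraries of UMI counts (a UMI marks each captured transcript) from 2 mutant samples and 1 control sample were analysed; they are called mutant 1, mutant 2 and control 2 after their labels, and control 1 was not analysed here. With a single control library no test between genotypes was possible, and a gene was counted as lower or higher only where the ratios of both mutant libraries to control 2 passed 0.5 on the log2 scale the same way. The β cells gave 592 UMIs of Myt3 itself for mutant 1, 772 for mutant 2 and 2991 for control 2, which is 81.4, 99.9 and 83.9 CPM of all UMIs, with ratios of -0.63 and -0.34 after TMM scaling, and the insertion cannot be read from these counts.

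Complexes I to IV pass electrons from NADH and succinate to oxygen and, complex II aside, pump protons out of the mitochondrial matrix. ATP synthase, complex V, lets the protons flow back and makes ATP. In β cells the ATP made from glucose closes potassium channels and so triggers insulin release, which is why the chain is central to glucose sensing. Complexes I, III, IV and V are built from subunits of both genomes: mitochondrial DNA encodes a few core membrane subunits, transcribed as long precursors that are cut into single mRNAs, whereas all complex II subunits and the assembly factors are nuclear.

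Depth differed between the libraries. Cells were called by hormone, which gave 2335, 1588 and 2092 β cells, 294, 215 and 34 α cells and 24, 28 and 30 δ cells in mutant 1, mutant 2 and control 2. Median depth per β cell was 2732 UMIs (mutant 1), 4429.5 (mutant 2) and 15423.5 (control 2), and insulin took 40.9%, 43.5% and 56.8% of all β-cell UMIs. All 8 β-cell markers were present in the β cells of each library, and the acinar, duct, endothelial, stellate and leukocyte marker lists each took at most 0.0134% of their UMIs. Glucagon took 0.316% and 0.330% of β-cell UMIs in the mutant libraries and 0.0325% in control 2, and the markers of PP cells took 0.128%, 0.146% and 0.0580%. Their part in the results below was not tested. The batch label of control 2 differs from that of the mutant libraries but is no valid date, so whether it marks a separate batch is not known. Depth, any such batch and genotype cannot be told apart.

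Most nuclear respiratory chain transcripts were lower in β cells of the libraries labelled mutant than in control 2 when all cells were summed, and complexes III and IV stood lowest. When only cells of 3000 to 6000 UMIs were used, the nuclear median was near 0, with 20 of 68 lower (17.4% of all genes there) and 17 higher (26.5%). That window held 836, 627 and 312 β cells of mutant 1, mutant 2 and control 2, the last from the shallow end of control 2. With each cell thinned to 1000 UMIs instead, the mean of both nuclear medians was -0.59. The medians of all genes were then 0.04 and -0.01. Of the 87 nuclear members, 69 passed the filter of 20 CPM on average (CPM are UMIs scaled to a common library size by the TMM method of edgeR). The medians of their log2 ratios were -0.92 for mutant 1 and -0.96 for mutant 2, against -0.20 and -0.22 for all 4777 genes tested, which puts them at -0.72 and -0.74 relative to all genes. Of these 69, 43 were lower and 3 were higher, while 32.5% of all genes tested were lower and 14.3% were higher. Of the 43 lower genes, 8 (Ndufb1, Ndufs4, Ndufs8, Ndufa13, Uqcrc1, Cox6c, Atp5g2 and Atp5md) were under 20 CPM in both mutant libraries. These passed only through control 2, so they had to differ, which leaves 35 others. Among all 4777 genes tested 371 were under 20 CPM in both mutant libraries. Of these 334 were lower, which leaves 1220 other lower genes, and the 32.5% above includes the 334. The ratios of both mutant libraries lay close together, with a median gap of 0.13 among the nuclear members.

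**Figure D1:**
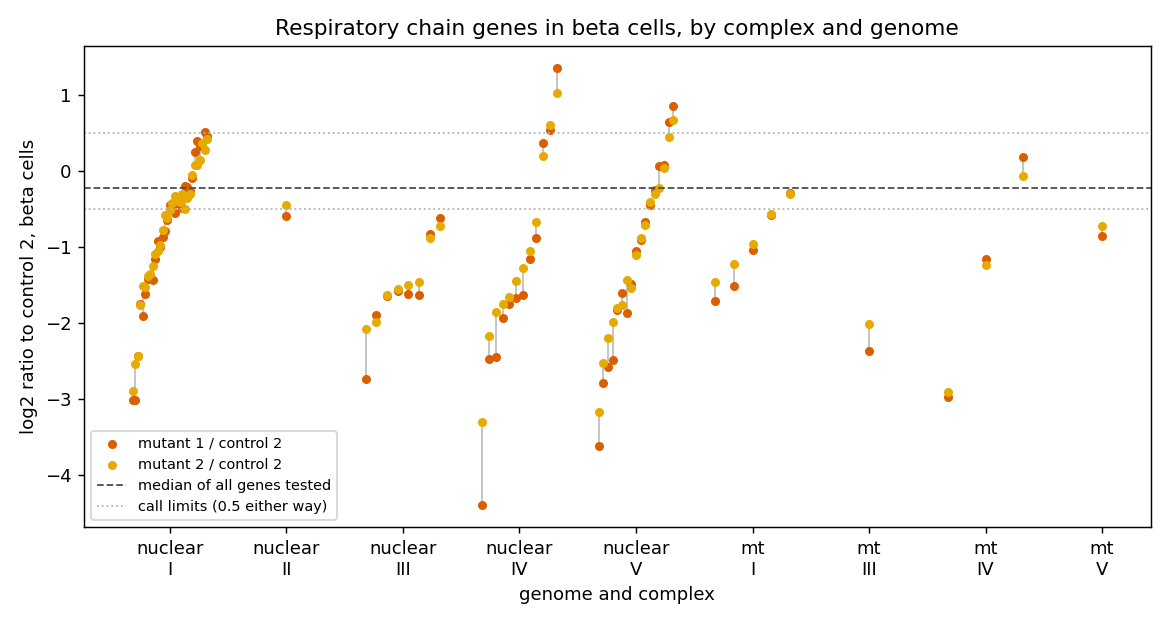
Log2 ratio of each tested member in β cells of mutant 1 (dark orange) and mutant 2 (yellow) to control 2, by genome (nuclear or mt) and complex, with a grey line joining both ratios of a gene. The dashed line is the median of all genes tested and the dotted lines are the limits of 0.5 either way. All 8 nuclear complex III genes lie below the lower limit, among them Uqcrc1, which passed the filter only through control 2. Most of complex I lies nearer to the dashed line.

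Complex I, which oxidizes NADH, was the least shifted of the nuclear groups with more than 1 tested gene. Its 31 tested subunits had medians of -0.55 and -0.51, and 15 were lower and 0 higher. In β cells of 3000 to 6000 UMIs its medians were 0.29 and 0.23, with 5 lower and 9 higher. Ndufb1, a small accessory subunit, was the lowest, with 67, 78 and 1777 UMIs in mutant 1, mutant 2 and control 2, or 8.04, 8.80 and 65.5 CPM. Its mutant values stood together, but Ndufb1 passed the filter only through control 2 and so had to lie below it.

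Other complex I subunits went the opposite way. Ndufb10, an accessory subunit, had 140 and 136 CPM in the mutant libraries against 101 in control 2, with ratios of 0.47 and 0.42. Ndufs6, also accessory, had ratios of 0.52 and 0.28, and Ndufv1, the core subunit that takes electrons from NADH, had ratios of 0.34 and 0.38. None of these 3 reached the limit in both libraries. Ndufa4 counts here under complex I by its name, although its protein is now assigned to complex IV, and its ratios were 0.40 and 0.08.

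Complex II, succinate dehydrogenase, was measured thinly. Only Sdha, the flavoprotein subunit, passed the filter, with 38.8, 42.9 and 58.1 CPM in mutant 1, mutant 2 and control 2 and ratios of -0.58 and -0.44. Sdhb, the iron-sulfur subunit, had 91, 108 and 912 UMIs and Sdhc, a membrane anchor, had 70, 98 and 966. Sdhd, the other membrane anchor, had 1 UMI in each mutant library and 209 in control 2. As CPM, Sdhb had 10.9, 12.2 and 33.6, Sdhc 8.40, 11.1 and 35.6, and Sdhd 0.120, 0.113 and 7.70. Sdhb to Sdhd lay below the filter and were not counted.

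In complex III, the cytochrome bc1 complex, all 8 nuclear genes were tested and all 8 were lower, with medians of -1.62 and -1.52. One of them, Uqcrc1, passed the filter only through control 2 and so had to lie below it. Uqcrb had the lowest mean, at 14.3, 22.6 and 95.1 CPM in mutant 1, mutant 2 and control 2. Uqcrq, another small subunit, had 63.6, 59.3 and 236 CPM. The smallest shifts were those of the core protein Uqcrc2, with ratios of -0.62 and -0.72, and of Uqcr10, with -0.82 and -0.88. Uqcrfs1, the Rieske iron-sulfur protein, had ratios of -1.63 and -1.45.

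Complex IV, cytochrome c oxidase, was the most divided. Of 12 tested genes 9 were lower and 2 higher, with medians of -1.65 and -1.35. Cox6c, which passed the filter only through control 2, had 41, 94 and 2852 UMIs, or 4.92, 10.6 and 105 CPM. Its ratios were the lowest of all tested members at -4.398 and -3.30. Cox6a1 followed, with 28.1, 34.5 and 156 CPM. Cox4i1, the regulatory subunit, had 68.9, 73.4 and 230 CPM. Against these, Cox5a had 127 and 101 CPM in the mutant libraries and 49.4 in control 2, ratios of 1.36 and 1.03, the highest of all tested members. Cox6a2 was higher as well, with 66.1, 69.4 and 45.5 CPM and ratios of 0.54 and 0.61. Cox7a2l had ratios of 0.37 and 0.20.

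All 17 genes of ATP synthase were tested, with medians of -1.05 and -1.10, and 11 were lower and 1 higher. Atp5g2, 1 of 3 genes for the same mature ring subunit c, had 40, 58 and 1614 UMIs, or 4.8, 6.54 and 59.5 CPM. Atp5md, a small membrane subunit, had 15.96, 19.3 and 111 CPM. Atp5g2 and Atp5md passed the filter only through control 2. Atp5b, the catalytic β subunit, had ratios of -2.58 and -2.19, whereas Atp5a1, its α partner in the same catalytic head, had ratios of 0.65 and 0.45. Atp5j2, subunit f of the membrane part, was the one counted as higher, with 569 and 500 CPM in the mutant libraries and 312 in control 2. Atpif1, the inhibitor of ATP synthase, is no member by its symbol and had 373, 431 and 3772 UMIs, with ratios of -1.63 and -1.51. Atp5a1 and Atp5b thus lay on opposite sides of control 2 in both mutant libraries.

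The filter left out 18 nuclear members in β cells. Cox8b, Cox8c and Ndufb11b had 0 UMIs in the β cells of all 3 libraries, and the tissue isoforms Cox4i2, Cox6b2, Cox7a1, Cox7b2 and Ndufa4l2 had at most 22 UMIs in any library. Ndufb4, Ndufb6, Ndufb9, Ndufa9, Ndufab1, Ndufs1 and Ndufv2 were also below it, with 18 to 124 UMIs in the mutant libraries and 414 to 1311 in control 2.

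Promoters are shown for 4 members that stood at the ends of this range: Cox5a and Atp5j2, which were higher, and Atp5g2 and Ndufb1, which were lower. Atp5g2 and Ndufb1 passed the filter only through control 2. The windows run from 250 bases before to 50 after the RefSeq start site (GRCm38.p6, read 5′ to 3′ on the strand of the gene) and lie at chr9:57520982-57521281 (plus strand), chr5:145191492-145191791 (minus), chr15:102670998-102671297 (minus) and chr12:101975689-101975988 (minus). Capitals mark matches to the motifs searched.
Cox5a: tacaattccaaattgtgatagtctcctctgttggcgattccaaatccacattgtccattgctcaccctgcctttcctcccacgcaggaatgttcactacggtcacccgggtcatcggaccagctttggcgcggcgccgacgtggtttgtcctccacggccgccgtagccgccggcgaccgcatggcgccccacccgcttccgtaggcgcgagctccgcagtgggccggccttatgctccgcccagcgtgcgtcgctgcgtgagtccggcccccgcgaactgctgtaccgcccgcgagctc
Atp5j2: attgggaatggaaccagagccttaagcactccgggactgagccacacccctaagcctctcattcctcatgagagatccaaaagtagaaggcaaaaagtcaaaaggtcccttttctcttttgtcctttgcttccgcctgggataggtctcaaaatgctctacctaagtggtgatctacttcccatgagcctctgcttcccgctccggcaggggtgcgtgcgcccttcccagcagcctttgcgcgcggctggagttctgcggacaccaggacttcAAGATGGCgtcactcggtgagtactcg
Atp5g2: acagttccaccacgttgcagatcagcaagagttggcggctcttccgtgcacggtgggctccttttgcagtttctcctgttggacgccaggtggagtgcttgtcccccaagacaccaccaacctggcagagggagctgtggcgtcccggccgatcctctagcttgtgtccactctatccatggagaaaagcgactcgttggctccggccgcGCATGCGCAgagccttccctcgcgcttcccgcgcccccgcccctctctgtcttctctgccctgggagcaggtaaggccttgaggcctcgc
Ndufb1: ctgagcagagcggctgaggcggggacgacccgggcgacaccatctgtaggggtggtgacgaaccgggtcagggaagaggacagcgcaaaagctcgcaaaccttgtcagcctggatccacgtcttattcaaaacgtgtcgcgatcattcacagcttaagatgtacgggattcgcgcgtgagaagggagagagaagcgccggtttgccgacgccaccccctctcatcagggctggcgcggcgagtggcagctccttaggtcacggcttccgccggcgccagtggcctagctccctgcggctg
Motifs searched on both strands were TGCGCATGC (core of nuclear respiratory factor NRF1), CCGGAAG (ETS factors such as GABPA), AAGATGGC (YY1), AAAGTTT (MYT1 family), CAGCTG (an E-box) and TATAAA. None of these strings contains another. The capitals are an NRF1 core in Atp5g2 and a YY1 match in Atp5j2, and the Cox5a and Ndufb1 windows hold no match.

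Windows were found for 70 of the 100 members, 75 in all. The YY1 letters stood in 13.3% of the member windows and in 2.75% of all 32851 windows of the same length. The ETS letters stood in 22.7% of member windows against 8.86% of all windows, and the NRF1 core in 6.67% against 1.52%. The MYT1 family letters stood in 4.0% of member windows and 4.74% of all windows, the E-box in 8.0% and 16.3%, and TATAAA in 12.0% and 13.6%. Among windows of tested members, those of genes lower in β cells held the ETS letters in 11 of 39 and those of genes not counted in 3 of 23. The same counts were 3 of 39 and 2 of 23 for the NRF1 core, 4 and 4 for YY1, 1 and 1 for the MYT1 family, 1 and 3 for the E-box, and 4 and 3 for TATAAA. The lower group includes genes that passed the filter only through control 2 and so had to be lower. Among its matches, Atp5g2 and Uqcrc1 (NRF1 core), Ndufs8 and Atp5md (ETS), Ndufs4 (YY1) and Atp5md (TATAAA) are of that kind. All of these are matches of letters, not sites shown to be bound.

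Transcripts of mitochondrial DNA were unevenly shifted. Of the 13 genes 10 passed the filter, 8 were lower and 0 were higher, with medians of -1.10 and -1.09, or -0.89 and -0.87 relative to all genes. mt-Co2, subunit 2 of cytochrome c oxidase, had 145 and 153 CPM in the mutant libraries and 1141 in control 2, ratios of -2.97 and -2.90. mt-Cytb, cytochrome b of complex III, had 323, 410 and 1660 CPM, and mt-Co1 had 283, 268 and 632. mt-Co3, from the same genome, had 5889, 4947 and 5174 CPM, so control 2 lay between the mutant libraries. Of the complex I genes, mt-Nd2 had ratios of -1.71 and -1.45, mt-Nd4 of -1.51 and -1.22, mt-Nd1 of -1.03 and -0.96, and mt-Nd3 of -0.57 and -0.56. mt-Nd5, at -0.28 and -0.30, was not counted. mt-Atp6, subunit a of ATP synthase, had ratios of -0.85 and -0.71.

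The make-up of mitochondrial mRNA needs no scaling between libraries and showed the same unevenness. In β cells mt-Co3 gave 61.7% (95% exact binomial interval 61.4 to 62.1) of the UMIs of the 13 genes in mutant 1, 55.5% (55.2 to 55.9) in mutant 2 and 36.3% (36.1 to 36.4) in control 2. mt-Co2 gave 1.52%, 1.71% and 8.0%, and mt-Cytb 3.39%, 4.61% and 11.6%. mt-Nd3 differed little, at 7.90%, 8.54% and 7.85%. As a ratio, 40.6 UMIs of mt-Co3 were counted for each of mt-Co2 in mutant 1, 32.4 in mutant 2 and 4.54 in control 2. In α cells, called from other cells of the same libraries, that ratio was 42.3, 22.1 and 3.38. Intervals cover counting error alone. mt-Nd6, mt-Nd4l and mt-Atp8 did not pass the filter, with 15, 18 and 26 UMIs of mt-Nd6, 72, 69 and 211 of mt-Nd4l and 53, 78 and 444 of mt-Atp8.

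**Figure D2:**
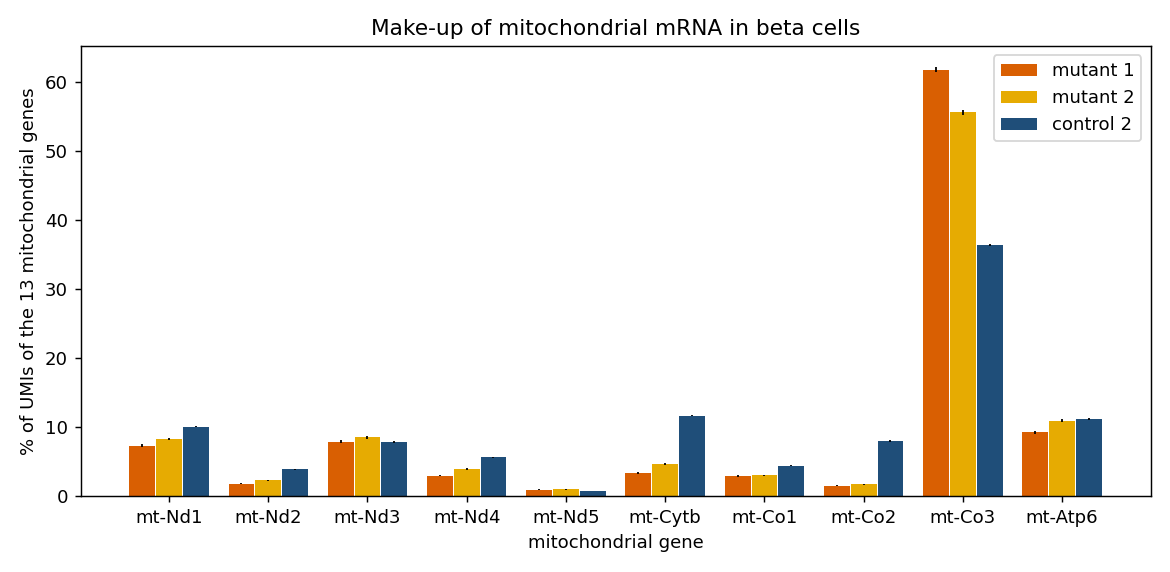
Share of each of 10 mitochondrial genes in the UMIs of the 13 mitochondrial members in β cells, in percent, by library, with 95% exact binomial intervals as error bars. mt-Co3 takes 61.7% and 55.5% in the mutant libraries and 36.3% in control 2, while mt-Co2 and mt-Cytb are smaller in both mutant libraries.

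Summed over the members, the balance of both genomes was nearly equal between libraries. Mutant 1 gave 1.43 mitochondrial UMIs for each nuclear one, mutant 2 gave 1.40 and control 2 gave 1.43, a log2 difference from control 2 of 0.00069 and -0.024. Within complexes the balance moved apart. In complex III the ratio was 0.887 and 1.12 in the mutant libraries and 1.63 in control 2, and in complex I it was 0.730, 0.823 and 1.06. In complex IV, where mt-Co3 is counted, it was 6.35 and 5.37 against 3.997. In complex V it was 0.355, 0.427 and 0.492. The order seen for complex IV did not hold among cells of 3000 to 6000 UMIs. There control 2 had the largest complex IV ratio, so that direction depends on depth. The summed balance also moved with depth: with cells limited to 3000 to 6000 UMIs, the log2 difference was -1.24 in mutant 1 and -1.36 in mutant 2. With each cell thinned to 1000 UMIs it was -0.43 and -0.33.

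Isoform shares, which also need no scaling, separated the libraries. Cox6a2, the form of cytochrome c oxidase subunit 6a best known from heart and skeletal muscle, gave 70.2% (95% exact binomial interval 66.9 to 73.4) of the Cox6a1 and Cox6a2 UMIs of β cells in mutant 1, 66.8% (63.6 to 69.8) in mutant 2 and 22.6% (21.5 to 23.7) in control 2. Among cells of 3000 to 6000 UMIs the shares were 73.0%, 67.7% and 25.3%, and with each cell thinned to 1000 UMIs they were 69.4%, 66.2% and 26.2%. Among the 3 genes of subunit c, Atp5g3 gave 67.1% and 66.7% in the mutant libraries and 39.7% in control 2, Atp5g1 30.4%, 30.1% and 46.9%, and Atp5g2 2.49%, 3.28% and 13.4%. Of the Cox7a1, Cox7a2 and Cox7a2l UMIs, Cox7a2 gave 11.5%, 13.7% and 27.2%. Cox4i2 gave 0.174%, 0% and 0.112% of the Cox4i1 and Cox4i2 UMIs, so Cox4i1 was the Cox4 transcript counted in each library. Near-identical copies of these genes, pseudogenes included, could take some of their reads, and that was not tested.

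**Figure D3:**
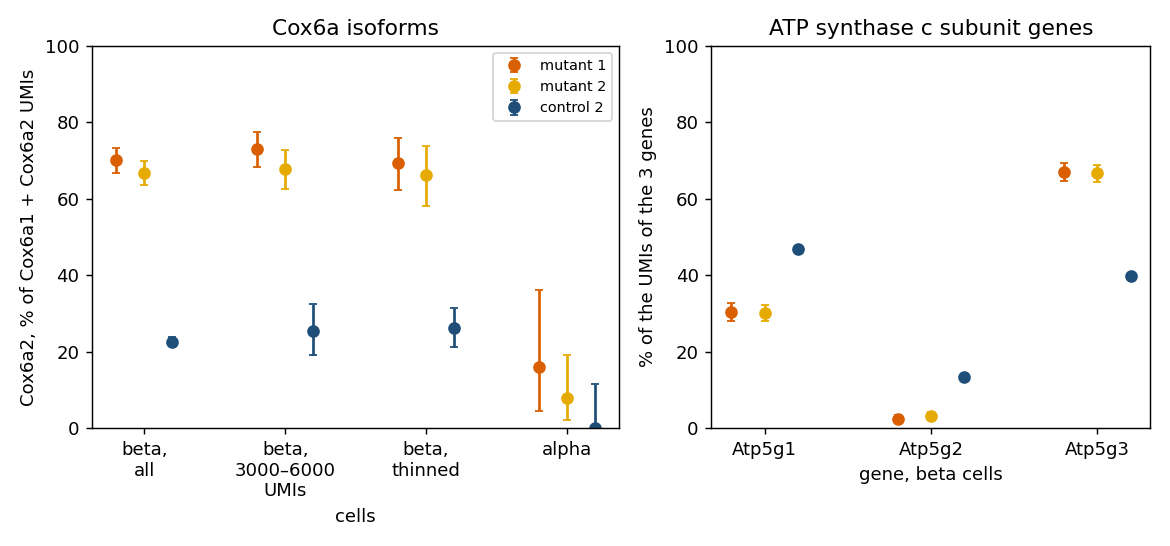
Left, Cox6a2 as a percentage of the Cox6a1 and Cox6a2 UMIs in β cells (all cells, cells of 3000 to 6000 UMIs, and thinned to 1000 UMIs) and in α cells. Right, the shares of Atp5g1, Atp5g2 and Atp5g3 in β cells. Points are libraries and bars are 95% exact binomial intervals; the mutant libraries lie at 70.2% and 66.8% Cox6a2 against 22.6% in control 2.

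Several results moved with depth. In β cells of control 2, nuclear members took 1.26% of non-hormone UMIs among cells of 2000 to 4000 UMIs and 2.22% among cells of 32000 or more, and mitochondrial members took 5.01% and 2.66%. Mutant cells of 2000 to 4000 UMIs had 1.53% and 1.47% nuclear and 2.13% and 1.78% mitochondrial. When only β cells of 3000 to 6000 UMIs were compared, the nuclear median was 0.01 in mutant 1 and -0.06 in mutant 2, against 0.14 and 0.11 for all 5122 genes tested. Of 42 genes counted as lower at all depths and tested here, 20 were lower again, among them Cox6c, Ndufb1, Atp5b and Atp5md. Cox6c, Ndufb1 and Ndufs4 were again under 20 CPM in both mutant libraries and passed only through control 2, so they had to lie lower. Cox5a, Cox6a2 and Atp5j2 were higher again. The complex III medians were -0.52 and -0.51, with 4 of 8 lower. The mitochondrial median was -1.56 and -1.59, and all 8 mitochondrial genes counted at all depths were lower again.

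**Figure D4:**
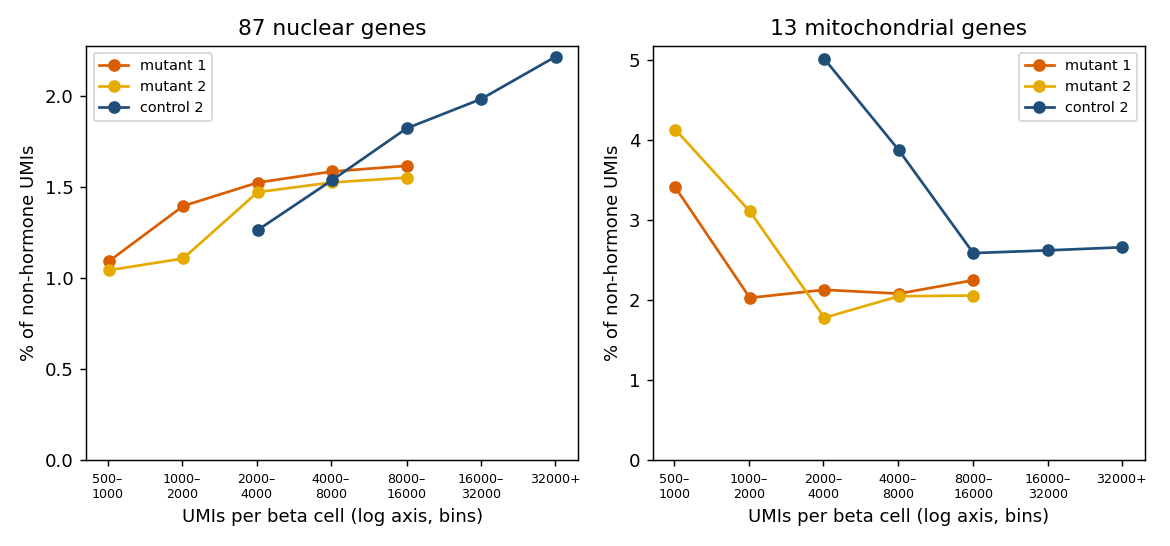
Nuclear (left) and mitochondrial (right) members as a percentage of non-hormone UMIs in β cells, by UMIs per cell on a log axis, in bins of at least 20 cells. In control 2 the nuclear share rises from 1.26% to 2.22% with depth and the mitochondrial share falls from 5.01% to 2.66%.

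Scaling and length moved with the result as well. With CPM of all UMIs the median of all genes was 0.41 and 0.39, 30 nuclear members were lower and 13 higher where 12.2% of all genes were lower and 41.4% higher, and the mean of both complex I medians was 0.06. As a share of all UMIs the nuclear members took 0.765% in mutant 1, 0.728% in mutant 2 and 0.760% in control 2, whereas of non-hormone UMIs they took 1.53%, 1.5% and 1.95%. Genes with transcripts under 1000 nucleotides were lower more widely: 53.3% of 475 such genes were lower, against 63.3% of 49 nuclear members of that length. Between 1000 and 2000 nucleotides 37.5% of 983 genes and 10 of 14 members were lower, and between 2000 and 4000 nucleotides 30.2% of 1850 genes and 1 of 5 members. The part of length in the result was not tested further.

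The same ratios were taken in α cells of these libraries. Of 74 nuclear members tested in α cells 37 were lower and 2 higher, and of 10 mitochondrial members 6 were lower. Of all 6225 genes 14.3% were lower and 23.3% higher. The lower members include Ndufb4, Ndufb9, Ndufab1 and Atp5g2, whose α-cell values were under 20 CPM in both mutant libraries. They passed the filter only through control 2 and so had to lie lower. Genes of this kind were not taken out of these counts or of the shares of all genes. The nuclear median was -0.78 and -0.61 and the median of all genes was 0.14 and 0.12. Complex III had 7 of 8 lower. Cox7a2 had ratios of -0.28 and -0.37 in α cells, and Atp5mpl of -0.01 and -0.03. Control 2 held 34 α cells, so these ratios rest on few cells, and both comparisons use the same control library.

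Lists of genes that work with the chain are read against the 32.5% of all genes that were lower and the 14.3% that were higher. Of 9 tested electron carriers and dehydrogenases 2 were lower and 4 higher: Cycs, cytochrome c, had ratios of -2.02 and -1.93, while Coq7 of ubiquinone synthesis had 1.54 and 1.21. Cyc1, cytochrome c1 of complex III, which the symbols used here do not take in, stood among the higher genes at 0.58 and 0.53. Of 11 tested assembly genes of complexes II to V 4 were lower and 0 higher, led by Pet100 at -1.68 and -1.61. Of 14 tested genes of the citric acid cycle and pyruvate oxidation 2 were lower and 3 higher, with Dld at -1.01 and -0.74 and Pdha1, a subunit of pyruvate dehydrogenase, at 1.93 and 1.64. Of 12 glycolytic genes 3 were lower and 2 higher, with Gapdh at -1.60 and -1.88 and Tpi1 at 1.07 and 0.78. Ucp2, an inner membrane carrier, had ratios of -1.82 and -1.61, and 3 of 12 tested carriers and membrane genes were lower. Of 4 tested genes of mitochondrial DNA expression 2 were lower and 1 higher, with Slirp, which binds mitochondrial mRNAs, at -1.61 and -1.41 and Lars2, the mitochondrial leucyl-tRNA synthetase, at 3.00 and 2.69. With β cells limited to 3000 to 6000 UMIs, 17.4% of all genes were lower and 26.5% higher. Counts lower and higher were 1 and 7 of 10 electron carriers, and 1 and 3 of 10 assembly genes of complexes II to V. They were 0 and 5 of 14 citric acid cycle genes and 0 and 5 of 11 glycolytic genes. For carriers and membrane genes they were 3 and 4 of 12, and for mitochondrial DNA expression 0 and 1 of 3. For nuclear regulators they were 0 and 1 of 4, and for complex I assembly 0 and 2 of 3. The median of the assembly genes of complexes II to V turned from -0.43 and -0.45 to 0.55 and 0.40. That of all genes turned from -0.20 and -0.22 to 0.14 and 0.11. At all depths the 4 tested nuclear regulators were not counted either way, Nrf1 at 0.29 and 0.06 and Ppard at 0.04 and -0.25. Ecsit and Ndufaf2, the 2 tested complex I assembly genes, had ratios of 0.58 and 0.58, and of 0.44 and 0.69. Cycs, Pet100, Gapdh and Slirp were under 20 CPM in both mutant libraries at all depths. They passed the filter only through control 2 and so had to lie lower. Ecsit, Ndufaf2 and Pfkp were under 20 CPM in control 2 and passed only through the mutant libraries. Pfkp is the other glycolytic gene counted as higher, beside Tpi1, and had to lie higher.

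Cell types could be tested, since each library held all of them. In δ cells of mutant 1, mutant 2 and control 2, δ-cell markers took 7.66%, 8.27% and 11.6% of UMIs. β-cell markers took 7.35%, 7.81% and 6.34% of the same UMIs. The part of mixed cells in the δ results was not tested. UMIs were summed per library and cell type and fitted with edgeR, with the library as a block, over 6211 genes, of which 85 were members (the other 15 lay below the filter). Against β cells, 28 members fell in α cells and 0 rose, and 34 fell in δ cells and 0 rose. At an unadjusted p under 0.05 0 members rose in either cell type, and DESeq2 gave 1 that rose in α and 0 in δ cells. Of all genes tested 23.3% fell and 11.1% rose in α cells, and 21.1% fell and 4.17% rose in δ cells. The nuclear median was -0.35 in α cells, against -0.18 for all genes, and -0.65 in δ cells, against -0.48. Mitochondrial members stood lower still, with medians of -0.49 in α and -1.51 in δ cells.

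These counts depend on the scale. With CPM of all UMIs, which hormones fill to a larger share in β cells, 31 members rose and 5 fell in α cells and 29 rose and 1 fell in δ cells. Of all 6211 genes 2687 then rose and 406 fell in α cells, and 2626 rose and 121 fell in δ cells. Without the library block 4 members fell in α cells and 14 in δ cells, where 495 and 563 of all genes fell. Without control 2 35 members fell and 8 rose in α cells, where 1772 of all genes fell and 1130 rose. Without mutant 1 14 members fell in α cells, beside 905 of all genes. Without mutant 2 8 members fell in α and 21 in δ cells, beside 738 and 660 of all genes. On every scale tried the mitochondrial median lay below the median of all genes in both cell types.

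**Figure D5:**
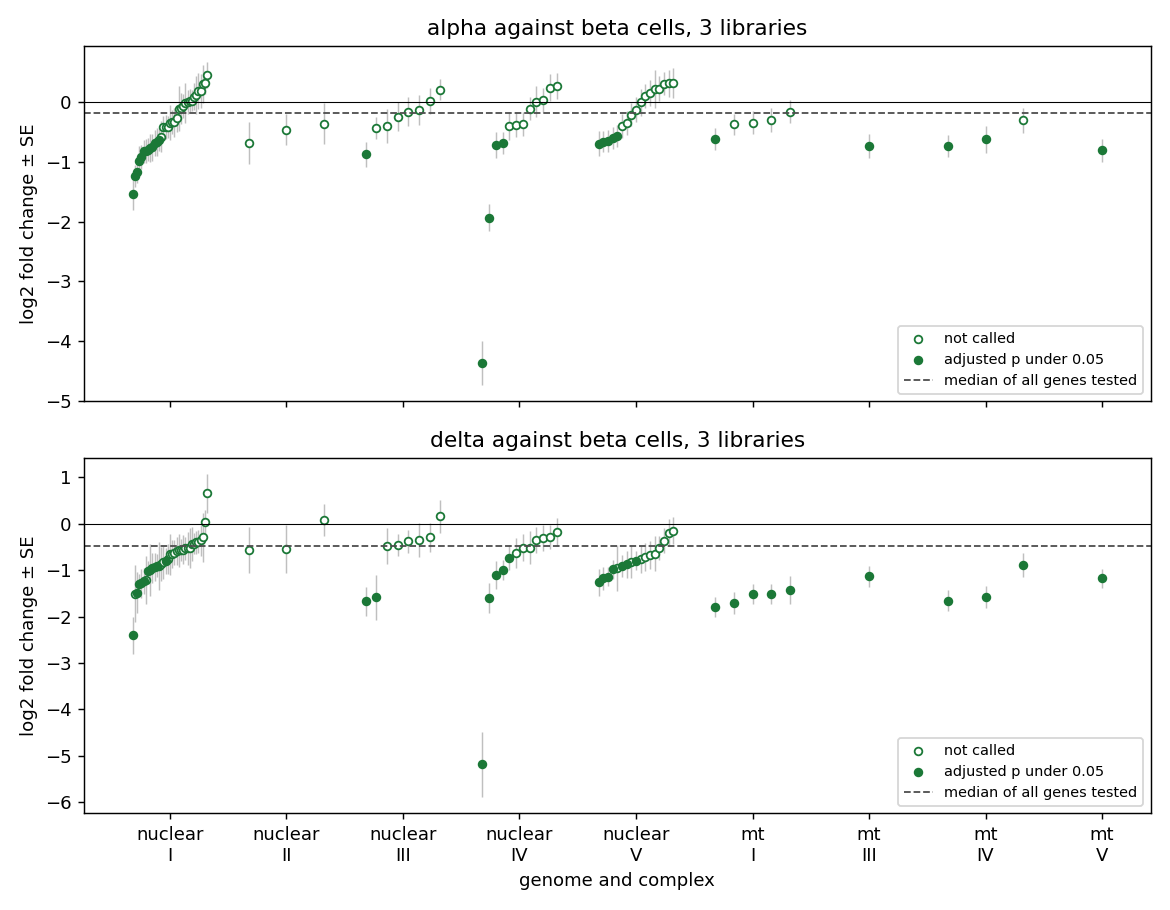
Log2 fold change ± SE of tested members in α (top) and δ cells (bottom) against β cells, by genome and complex, over 3 libraries, with filled points at an edgeR adjusted p under 0.05 and the dashed line at the median of all genes tested. Cox6a2 lies lowest in both panels, at -4.37 and -5.18.

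By complex, and beside the 23.3% and 21.1% of all genes that fell, 13 of 35 nuclear complex I genes fell in α cells and 10 in δ cells. In complex III 1 of 8 and 2 of 8 fell, in complex IV 4 of 12 and 5 of 12, and in complex V 5 of 17 and 7 of 17. None of 3 complex II genes passed in either cell type, and the median of complex V in α cells was -0.13, close to that of all genes. Of the 10 mitochondrial genes 5 fell in α cells and 10 in δ cells. In δ cells mt-Nd3 fell by 1.79 (SE 0.21, adjusted p = 8.46e-07) and mt-Nd2 by 1.71 (SE 0.24, adjusted p = 8.22e-06) on the log2 scale in the edgeR fit. In α cells mt-Atp6 changed by -0.81 (SE 0.19, edgeR adjusted p = 0.00159) and mt-Nd1 had -0.16 (adjusted p = 0.563). Together 19 members fell in both cell types, 67.9% of those that fell in α cells and 55.9% of those in δ cells.

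Cox6a2 set β cells apart most among the members. It had 113, 118 and 69.96 CPM in β cells of mutant 1, mutant 2 and control 2 on the TMM scale of this fit, 6.90, 5.69 and 0 in α cells and 0, 0 and 4.396 in δ cells. The α and β levels did not overlap. The log2 fold change was -4.37 (SE 0.37, edgeR adjusted p = 7.72e-10) in α cells and -5.18 (SE 0.70, adjusted p = 5.43e-06) in δ cells, where 0, 0 and 1 UMIs were counted. Taken library by library, those δ counts allow up to 135%, 63.6% and 98.2% of the β level in CPM of all UMIs. Each library alone thus limits it little, and no interval was taken over the libraries together. As a share of the β level in CPM of all UMIs, α cells had 9.17% (95% interval 2.50 to 23.5) in mutant 1 and 7.37% (2.01 to 18.9) in mutant 2, and the 0 UMIs of control 2 allow up to 44.7% by the same interval. Insulin transcripts, which α cells should lack, stood in the same α cells at 9.06%, 8.03% and 6.38% of the β level, and Iapp at 16.9%, 15.4% and 15.3%. Whether the Cox6a2 counts of α cells are background or low expression was not tested. Cox6a1, by contrast, had ratios of α to β level of 113%, 170% and 106% in CPM of all UMIs, and in the edgeR fit its fold change was -0.40 (SE 0.24, adjusted p = 0.192).

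Further members were lower in both α and δ cells. Cox5a fell by 1.94 (SE 0.22, edgeR adjusted p = 1.89e-07) in α and by 1.60 (SE 0.32, adjusted p = 0.00054) in δ cells. It had 217, 172 and 76.0 CPM in β cells and 48.3, 51.2 and 19.7 in α cells, without overlap. With CPM of all UMIs the δ change was -0.22 (edgeR adjusted p = 0.614), and the δ level was 95.2%, 59.3% and 114% of the β level, so the δ call depends on the scaling. With library sizes without hormone and mitochondrial genes the δ change was -1.06 (edgeR adjusted p = 0.0252). By the DESeq2 Wald test it was -1.17 (adjusted p = 0.0409). Ndufv3, an accessory subunit of the NADH-binding arm, changed by -1.24 in α and -1.30 in δ cells, and Ndufa4 by -1.17 and -1.01. Uqcrq changed by -1.67 in δ cells. Cox6c, by contrast, had 0.00 (SE 0.26) in α cells, and Cox4i1 had 0.27 (SE 0.21). Beyond the members, Lars2 changed by -2.49 and -2.62 and Pcx, pyruvate carboxylase, by -2.21 and -2.67 in α and δ cells, and 8 of 12 glycolytic genes fell in α cells. Coq8a, a ubiquinone synthesis gene, fell by 1.92 in α cells, and Gpd2, the mitochondrial glycerol phosphate dehydrogenase, by 2.42 in δ cells.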

How the data were processed

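Islet cells of 3 droplet libraries were analysed. The submitters' processing notes name GRCm39 and Seurat without their role, the study's methods name DropEst for counting, and versions are not given in the sources used here. The deposited matrices hold UMI counts per gene and cell, not normalized. Totals were 8448466 UMIs for mutant 1, 9013499 for mutant 2 and 36985253 for control 2, and 0 barcodes were shared by any pair of them.

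Cells with at least 500 UMIs, at least 100 genes and at most 10% mitochondrial UMIs were kept (2940, 2040 and 2283). A cell was called β where insulin made up at least 80% of its hormone UMIs and 10% of all its UMIs, and α or δ where glucagon or somatostatin made up at least 50% and 2%. Doublets were not removed by a caller. The hormone rule left 287, 209 and 127 cells unassigned, but it can keep mixed cells, above all among δ cells. With somatostatin at 70% of hormone UMIs or more, 2, 3 and 6 δ cells remained in mutant 1, mutant 2 and control 2. Counts were summed by library and cell type. Between genotypes, TMM-scaled log2 CPM with a prior count of 1 gave ratios without a test, over genes averaging 20 CPM or more. Between cell types, the quasi-likelihood test of edgeR 4.0.16 (R 4.3.3) was run with the library as a block, since the sums of 1 library share their cells' source, with Benjamini-Hochberg adjustment at 0.05. DESeq2 1.42.0 was an alternative, and Python 3.11.15, numpy 2.4.6, scipy 1.17.1 and pandas 2.3.3 did the rest. The edgeR fit was tested on simulated data. These gave all cell types the same profile apart from genes set to differ in α cells. They therefore cannot show how the scaling between cell types bears on the calls. Mutant 1 and mutant 2 differed by more than sampling noise (chi-square per degree of freedom 4.98). P-values rest on how far the cell-type differences vary across the 3 libraries once the library block is fitted. Each library is a pool of mice. Intervals cover counting error alone.

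Genes were named by a rule: the mitochondrial members, the isoform families, Sdha to Sdhd and Atpif1; the 2 tested nuclear genes with the lowest and the 2 with the highest mean ratio in each complex; the called members with the lowest fold changes, 5 in each cell type; and the extremes of each other list. Other genes printed with values, such as Ndufv1, Uqcrfs1, Atp5b, Cyc1 and Atp5mpl, were chosen after their values were seen. The values of 1 gene that the rule names are not reported here. Members and lists were chosen with earlier results of these data known. Alternatives covered scaling, filters, depth, cell calling and left-out libraries.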

Additional observations from a re-analysis of the deposited data

Results flagged for a closer look

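In 6 complex I genes every mutant library lay on one side of control 2 in β cells and on the other side in α cells. The mean log2 ratio of the mutant libraries was -1.75 in β and 0.52 in α cells for Ndufb5, -0.40 and 0.21 for Ndufb7, -0.34 and 0.39 for Ndufa11, -0.28 and 0.24 for Ndufs7, -0.069 and 0.35 for Ndufv3, and 0.24 and -0.39 for Ndufa8. The median of all genes tested was -0.20 and -0.22 in β cells and 0.14 and 0.12 in α cells. A small ratio can therefore change sign through that shift of all genes. Ndufv3, at -0.09 and -0.05 in β and 0.42 and 0.28 in α cells, lay above the median of all genes in both. How many of all genes changed sides in this way was not counted. The differences between the cell types were not tested, and control 2 held 34 α cells.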

How the results depend on the processing

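No paired analysis was possible between genotypes because the matrix of control 1 was not used here. Between cell types the pairing of sums from 1 library was the block. With no replicate block 4 members were lower in α and 14 in δ cells, against 28 and 34 with it. Of all genes 495 and 563 were lower with no block, against 1445 and 1311 with it.

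Values here are means of both mutant libraries. The nuclear median in β cells, -0.94, was -0.33 with CPM of all UMIs, -0.89 with library sizes without hormone and mitochondrial genes, -0.88 with DESeq2 size factors, -0.98 at no more than 5% mitochondrial UMIs, -0.028 in cells of 3000 to 6000 UMIs, -1.13 and -0.79 with a minimum of 5 or 50 CPM, and -0.59 after thinning to 1000 UMIs. Relative to all genes, -0.73, it was -0.87 without hormone and mitochondrial genes, -0.76 at 5% mitochondrial, -0.15 in cells of 3000 to 6000 UMIs, -0.84 and -0.67 with 5 or 50 CPM and -0.60 after thinning. The complex I median turned to 0.060 with CPM of all UMIs and 0.26 in cells of 3000 to 6000 UMIs, Uqcr10 to 0.20 in those cells, and mt-Nd3 to 0.027 with CPM of all UMIs. The mitochondrial median, -1.09, was -0.50 with CPM of all UMIs, -0.82 without hormone and mitochondrial genes, -1.03 with DESeq2 size factors, -1.05 at 5% mitochondrial, -1.57 in cells of 3000 to 6000 UMIs, -1.06 with insulin at 95% of hormone UMIs, -1.01 with 5 CPM, -1.11 with no mitochondrial limit and -1.13 after thinning. Relative to all genes, -0.88, it was -0.90 with CPM of all UMIs, -0.80 without hormone and mitochondrial genes, -0.83 at 5% mitochondrial, -1.70 in cells of 3000 to 6000 UMIs, -0.86 with insulin at 95%, -0.73 and -0.97 with 5 or 50 CPM, -0.90 with no mitochondrial limit and -1.14 after thinning.

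Of nuclear members 43 were lower, but 20 in cells of 3000 to 6000 UMIs and 28 with 50 CPM. Of all genes 32.5% were lower, but 17.4% in those cells and 31.0% of the 1952 genes tested with 50 CPM. Nuclear members that were higher numbered 3, but 13 with CPM of all UMIs and 7 without hormone and mitochondrial genes. They numbered 17 in cells of 3000 to 6000 UMIs, 7 after thinning and 3 to 5 without a mutant library. Of all genes 14.3% were higher, but 41.4% with CPM of all UMIs and 21.1% without hormone and mitochondrial genes. The share was 26.5% in cells of 3000 to 6000 UMIs and 21.4% after thinning. With CPM of all UMIs 5 mitochondrial members were lower and 1 higher, against 8 and 0, where 12.2% of all genes were lower. The log2 difference in mitochondrial over nuclear UMIs, -0.012, was -0.38 after thinning, -1.30 in cells of 3000 to 6000 UMIs, -0.035 with no mitochondrial limit and 0.041 at 5% mitochondrial.

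The 28 members lower in α cells were 5 with CPM of all UMIs, 16 with the DESeq2 Wald test, 18 with hormone at 70% and 8 to 35 without single libraries (14 without mutant 1, 8 without mutant 2). Of all genes 1445 were lower, but 406 with CPM of all UMIs, 784 with DESeq2 and 1342 with hormone at 70%. Against 0 higher there were 31 with CPM of all UMIs, 1 with DESeq2, 2 without hormone and mitochondrial genes in library sizes, and 0 to 8 without single libraries. With CPM of all UMIs 2687 of all genes were higher in α cells, against 689. The 34 lower in δ cells were 1 with CPM of all UMIs, 16 with DESeq2 and 14 without hormone and mitochondrial genes. They were 21 to 26 without single libraries, and 29 members were higher with CPM of all UMIs against 0. Of all genes 1311 were lower in δ cells, but 121 with CPM of all UMIs and 360 with DESeq2. The count was 442 without hormone and mitochondrial genes and 660 to 946 without single libraries. With CPM of all UMIs 2626 of all genes were higher in δ cells, against 259. With CPM of all UMIs fold changes turned positive in α cells for Atp5a1 (0.085), Atp5g1 (0.068), Atp5g3 (0.19), Atp5j2 (0.10), Cox7a2l (0.055), Cox8a (0.65), mt-Co1 (0.029), mt-Co3 (0.14), mt-Cytb (0.047), mt-Nd1 (0.61), mt-Nd3 (0.42) and mt-Nd4 (0.16). In δ cells they did for Atp5a1 (0.40), Atp5g1 (0.50), Atp5g3 (0.19), Atp5j2 (0.23), Cox4i1 (0.87), Cox6b1 (1.07), Cox6c (0.90), Cox7a2 (1.09), Cox7a2l (0.37), Cox8a (0.64), Ndufa4 (0.38), Ndufb10 (0.94), Ndufs6 (0.80), Ndufv3 (0.074), Uqcr10 (0.90), mt-Atp6 (0.20), mt-Co2 (0.48) and mt-Cytb (0.24). Apart from scaling, the cause of these changes was not tested. A single control library, its greater depth and the 24 to 30 δ cells of each library limit these values.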
